A study of Mus musculus with 9 samples.

Results

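The 10 genes described here, Adipoq, Plin1, Plin4, Fabp4, Lep, Cidec, Lpl, Retn, Cd36 and Cebpa, are textbook genes of the fat cell. They were chosen by symbol from the 23361 genes of the deposited table, and all 10 were found there. Each has values in 9 RNA libraries of FACS-sorted mouse skin cells, labelled melanocyte stem cells, the hair follicle reserve from which pigment cells are renewed. All mice were 10 weeks old and carried a genotype written TBPT, whose alleles the labels do not spell out. The 3 groups, Quiescent, Active and UVB (ultraviolet B), had 3 libraries each. The treatment label names depilation by chemical means or UVB light for all samples alike, so the groups are told apart only by their names, and it is not stated that the libraries came from separate animals. The p-values therefore measure the spread between these libraries, which may in part be technical.

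Fat cells store triglyceride in a large droplet. LPL on the capillary wall releases fatty acids from blood lipoproteins, CD36 takes them up, FABP4 carries them through the cytosol, and proteins such as PLIN1, PLIN4 and CIDEC coat or enlarge the droplet. C/EBPα (Cebpa) and PPARγ drive the fat cell programme, and the mature cell secretes adiponectin (Adipoq), leptin (Lep) and, in rodents, resistin (Retn). Not all of these genes are restricted to fat: Fabp4 and Cd36 are also known from capillary endothelium and macrophages, Lpl from macrophages and other cells, and Cebpa from myeloid cells, liver and skin epithelium.

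The data went against the label "adipocyte" for the set as a whole. The genes most restricted to fat cells were at or near 0 in every library, whereas Fabp4, Lpl, Cd36, Cebpa and, more weakly, Plin4 gave 314 to 13044 fragments per Quiescent library. Those 5 genes were lower in Active than in Quiescent, by 2.41-fold to 33.9-fold. The fall of Cebpa was the smallest, its libraries overlapped between the groups, and it depended on the scaling and on which libraries were kept. In UVB the results for Plin4, Fabp4 and Cd36 depended most on which library was read, because UVB replicate 3 stood apart. Lpl lay between Quiescent and Active in every UVB library. The set is therefore described below as 5 barely detected genes and 5 that were abundant in Quiescent. In Active, Plin4 had only 17 to 31 fragments per library.

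Totals ran from 21045071 to 35131778 fragments. Melanocyte markers (7 genes, summed) were at 72.7 to 115 CPM (fragments per 1e+06 of the scaled library total) in Quiescent, 7556.9 to 12294.9 in Active and 829 to 999 in UVB, with none of the 7 at 0 in any group. Fibroblast markers (7 genes) ran the other way, at 333996 to 450819.3 CPM in Quiescent, 4809.4 to 6117.2 in Active and 21898.2 to 34104.7 in UVB. Xist, the RNA of the inactive X chromosome, had 23353 to 30356 fragments in the UVB libraries and 4 to 12 in the others, so sex and the UVB label cannot be told apart. In sorted bulk samples, fewer cells of a type and less RNA per cell cannot be told apart either.

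Promoter sequence is shown for Plin4, Cd36 and Cebpa, which fell together in Active, and for Adipoq and Lep, which were at or near 0, so that genes of either kind can be compared. RefSeq (GRCm38.p6, the build that matches mm10) held a promoter entry for 8 of the 10 genes. The entries for Fabp4 and Lpl were not found. Each line gives bases upstream of the RefSeq gene start, 5′ to 3′ in the direction of the gene, without bases that lie in an annotated exon. Capitals mark matches, on either strand, to AGGTCA (the core recognised by nuclear receptors such as PPARγ), TTGCGCAA (a C/EBP palindrome), CCAAT or TATAAA.
Plin4, chr17:56109804-56110032, minus strand, positions -250 to -22: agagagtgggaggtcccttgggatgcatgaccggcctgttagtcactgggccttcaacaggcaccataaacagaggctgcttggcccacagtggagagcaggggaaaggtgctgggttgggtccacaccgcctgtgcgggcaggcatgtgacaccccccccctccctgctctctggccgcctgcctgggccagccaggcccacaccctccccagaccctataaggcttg
Cd36, chr5:17835897-17836146, minus strand, positions -250 to -1, within an intron of the longer GENCODE gene: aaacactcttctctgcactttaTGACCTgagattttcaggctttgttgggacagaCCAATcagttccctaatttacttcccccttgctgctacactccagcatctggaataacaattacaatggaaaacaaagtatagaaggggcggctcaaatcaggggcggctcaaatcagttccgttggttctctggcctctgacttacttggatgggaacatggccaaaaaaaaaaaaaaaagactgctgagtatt
Cebpa, chr7:35119043-35119292, plus strand, positions -250 to -1: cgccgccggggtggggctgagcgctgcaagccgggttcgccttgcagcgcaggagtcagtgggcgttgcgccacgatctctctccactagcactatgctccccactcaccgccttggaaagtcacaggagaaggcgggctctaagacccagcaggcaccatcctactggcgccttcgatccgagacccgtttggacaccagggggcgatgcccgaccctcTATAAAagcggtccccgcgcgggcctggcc
Adipoq, chr16:23146286-23146535, plus strand, positions -250 to -1: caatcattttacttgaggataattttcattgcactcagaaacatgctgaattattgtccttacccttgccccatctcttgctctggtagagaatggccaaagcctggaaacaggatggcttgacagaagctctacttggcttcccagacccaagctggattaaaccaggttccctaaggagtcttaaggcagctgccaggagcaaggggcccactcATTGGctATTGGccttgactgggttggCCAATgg
Lep, chr6:29059971-29060219, plus strand, positions -250 to -2: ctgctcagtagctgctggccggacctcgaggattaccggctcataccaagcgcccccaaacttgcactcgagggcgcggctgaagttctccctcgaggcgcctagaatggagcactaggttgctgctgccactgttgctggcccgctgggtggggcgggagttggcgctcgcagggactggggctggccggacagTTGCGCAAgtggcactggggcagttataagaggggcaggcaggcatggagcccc

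No match overlapped another, and none of the 4 motifs was found in all 3 genes that fell together. Cd36 held AGGTCA at position -228 and CCAAT at -195, Cebpa held TATAAA at -30, and Plin4 held CCAAT at -18, just past its printed stretch. Adipoq held CCAAT at -34, -27 and -7 but was hardly detected, and Lep, the gene with a TTGCGCAA (at -55), had 1 fragment in all. In 32851 promoter windows of the same 250 bases, AGGTCA was found in 14.0%, TTGCGCAA in 0.164%, CCAAT in 33.8% and TATAAA in 12.4%. These are matches of letters in short windows and say nothing of binding.

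The hormones of the mature fat cell were nearly absent. Lep (GRCm38 chr6:29060220-29073877, plus strand), the satiety hormone, had 0 fragments in 8 libraries and 1 fragment in UVB replicate 3. Adipoq (chr16:23146536-23158028, plus strand), the insulin-sensitising hormone, had 10, 3 and 0 fragments in Quiescent replicates 1 to 3, 1, 4 and 2 in Active and 11, 0 and 17 in UVB. Its level was 0.19 ± 0.196 CPM in Quiescent, 0.086 ± 0.057 in Active and 0.307 ± 0.289 in UVB (mean ± SD, n = 3), so the spread within groups was of the order of the means, and the groups overlapped. Retn (chr8:3655770-3660110, plus strand) had 6, 0 and 0 fragments in Quiescent, 1, 1 and 0 in Active, and 1, 0 and 0 in UVB. Most of its 9 fragments therefore lay in Quiescent replicate 1. A count of 0 allows up to 3 fragments, which is 0.0935 to 0.179 CPM depending on the library. This limit covers counting error only.

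The droplet proteins split. Plin1 (chr7:79720218-79732903, minus strand), which coats the droplet and gates lipolysis, had 1, 4 and 0 fragments in Quiescent, 0, 3 and 4 in Active and 6, 0 and 28 in UVB. Cidec (chr6:113424634-113435760, minus strand), which fuses droplets, had 2, 6 and 0 in Quiescent, 1, 2 and 0 in Active and 13, 1 and 13 in UVB. Both were highest in a UVB library and at 0 or 1 in another library of the same group. Plin4 (chr17:56100591-56109803, minus strand), a coat protein of small and nascent droplets, was far more abundant, with 757, 488 and 314 fragments in Quiescent, 31, 26 and 17 in Active and 80, 27 and 392 in UVB.

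Plin1, Cidec, Adipoq, Retn and Lep together had 142 fragments, of which 32 were in Quiescent, 19 in Active and 91 in UVB, and 59 of those 91 in UVB replicate 3. None of the 5 passed the filter for low counts, so they carry no test of the main fit. With no filter, none differed between groups (edgeR, smallest adjusted p = 0.17, Cidec in UVB against Active). Differences at this depth were not detectable, and the values do not show that the groups were equal.

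**Figure D1:**
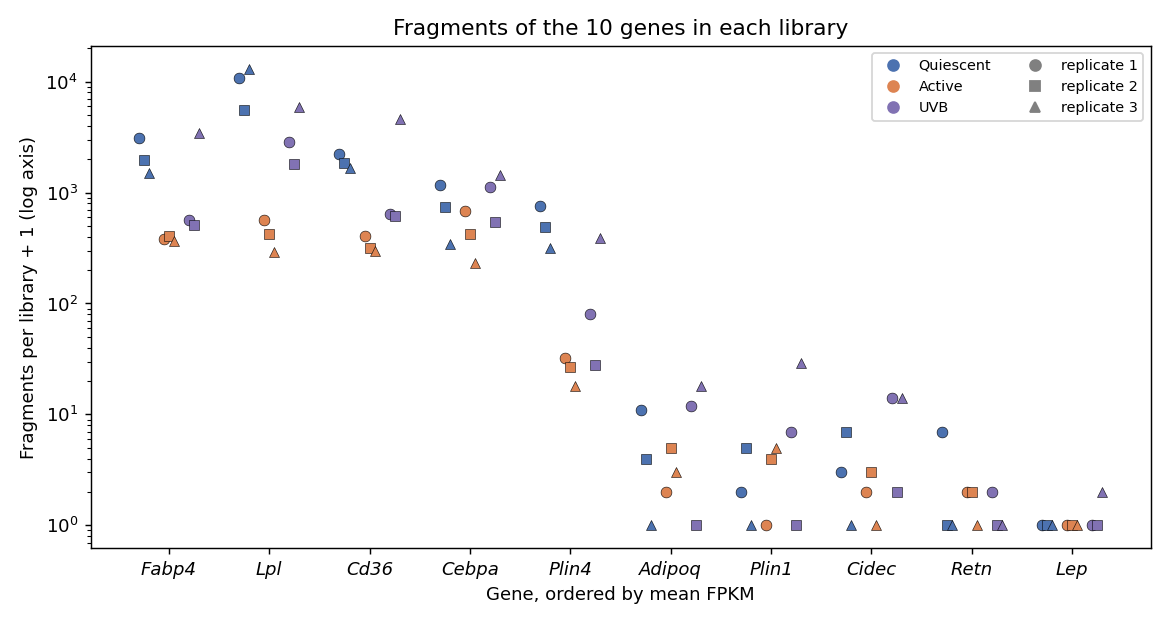
Fragments per library plus 1 (log axis) for the 10 genes, ordered by mean FPKM; colours are the 3 groups and marker shapes the 3 replicates. The 5 genes on the left have 314 to 13044 fragments per Quiescent library, the 5 on the right have at most 28 in any library, and UVB replicate 3 (purple triangles) lies above the other UVB libraries for Fabp4, Lpl, Cd36, Cebpa and Plin4.

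Per kilobase of transcript (the authors' FPKM), the order in Quiescent was Fabp4 at 237 ± 36.2, Lpl at 127 ± 58.3, Cd36 at 29.5 ± 3.26, Cebpa at 14.5 ± 5.63 and Plin4 at 4.46 ± 1.07 (mean ± SD, n = 3). No library of Quiescent gave overlapping values for neighbours in that order, although the closest pair, Fabp4 at 196 in its lowest and Lpl at 193 in its highest library, nearly touched and both values came from replicate 3. In Active the order changed to Fabp4 at 29.9 ± 3.7, Cebpa at 6 ± 2.31, Lpl at 3.73 ± 0.748, Cd36 at 3.6 ± 0.148 and Plin4 at 0.15 ± 0.0269. Cebpa, Lpl and Cd36 there did not differ beyond their spread.

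Active was compared with Quiescent to see how these genes differed between the states named as resting and activated. All 5 abundant genes were lower in Active, and the median log2 fold change of the 5 was -3.03, against 0.007 over the 15078 genes tested. At an adjusted p under 0.05, 29.2% of all tested genes were called lower and 29.1% higher, so a call in itself was common. Genes too low to be tested could not be called, so the count of 5 supports nothing about the 10.

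Lpl (chr8:68880491-68907448, plus strand), the enzyme that frees fatty acids from lipoproteins, and Plin4 had the largest fold changes, which did not differ beyond their errors. Lpl stood at 425, 330 and 770 CPM in Quiescent replicates 1 to 3 and at 17.7, 15.4 and 11.9 in Active. The highest Active library was far below the lowest Quiescent library. Lpl was 33.9-fold lower (log2 -5.08 ± 0.53 SE, adjusted p = 6.3e-05).

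Plin4 was at 29.6, 29.1 and 18.5 CPM in Quiescent and at 0.966, 0.943 and 0.695 in Active, again without overlap. This was 29.4-fold lower (log2 -4.88 ± 0.90, adjusted p = 0.0016). Its exons share bases with Hdgfl2 on the other strand, which the table lists under the older symbol Hdgfrp2, and no source used here gives the strand setting of the count, so Plin4 values are uncertain. Hdgfrp2 did not share the pattern, with 40.3 to 43.9 CPM in Quiescent and 52.2 to 61.0 in Active.

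Cd36 (chr5:17781690-17888801, minus strand), the fatty acid receptor, was at 87.2, 110 and 99.2 CPM in Quiescent and at 12.6, 11.5 and 12.1 in Active. Fabp4 (chr3:10204088-10208576, minus strand), the cytosolic carrier, was at 120, 116 and 89.4 CPM in Quiescent and at 11.7, 14.5 and 14.9 in Active. The groups did not overlap for either gene. Their folds were alike in size, 8.19-fold lower for Cd36 (log2 -3.03 ± 0.74, adjusted p = 0.0072) and 7.91-fold lower for Fabp4 (log2 -2.98 ± 0.70, adjusted p = 0.0056).

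Cebpa (chr7:35119293-35121928, plus strand), the transcription factor, changed least. Its Quiescent libraries were at 45.8, 44.2 and 20.2 CPM and its Active libraries at 21.1, 15.2 and 9.48, and the lowest Quiescent library lay below the highest Active library. The difference was 2.41-fold (log2 -1.27 ± 0.44, adjusted p = 0.034). It lost its call when Quiescent replicate 1 (adjusted p = 0.099), Quiescent replicate 2 (0.091), Active replicate 2 (0.087) or Active replicate 3 (0.1) was left out, and with library size as the only scaling (log2 -0.53, adjusted p = 0.32). An exon base overlap with Gm45091 on the other strand adds an uncertainty like that of Plin4. Gm45091 was not among the genes of the deposited table, so its pattern could not be compared.

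Marker lists of several other cell types moved alongside, but not all lists did. Macrophage markers (9 of 9 lower in Active) summed to 377, 3180.3 and 204 CPM in Quiescent and to 36.5 to 114 in Active. Endothelial markers (9 of 9 lower) summed to 373 to 540 CPM in Quiescent and to 23.7 to 28.9 in Active, and fibroblast markers (7 of 7 lower) to the values given above. Skeletal muscle markers (4 of 5 tested lower) summed to 16.6 to 42.1 CPM in Quiescent and to 1.4 to 1.9 in Active, and smooth muscle and pericyte markers (4 of 5 lower, 1 higher) to 611 to 927 and 537 to 639. None of these 5 lists had a gene at 0 throughout either group. Of 8 adipocyte markers, Lep was at 0 in both groups, 3 (Pnpla2, Lipe and Slc2a4) were tested and all 3 were lower in Active, with sums over the list of 46.9 to 75.8 CPM in Quiescent and 29.0 to 38.7 in Active. Adipoq, Plin1 and Cidec, also on that list, reached at most 0.391 CPM in any library of these groups and so added little to the sums. With library size alone 1 of the 3 tested adipocyte markers was called lower, and 7 macrophage, 9 endothelial and 6 fibroblast markers were. Other lists had few or no falls called with the main scaling. No keratinocyte marker (4 tested) and no red blood cell marker (3 tested) was called. Higher in Active were 1 of 6 tested sebocyte markers, 2 of 4 of mammary and gland epithelium, and 2 of 4 Schwann markers, with 1 Schwann marker lower. Quiescent replicate 2, with the highest macrophage sum of its group, had Fabp4 at 116 CPM, between its values in replicates 1 and 3, and Cd36 at 110 CPM, the highest of the group. The part of these cell types in the falls was not tested.

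UVB was compared with Quiescent and with Active to place the UVB libraries beside both states. The 2 comparisons share the UVB libraries, and each also shares a group with Active against Quiescent. Before the values, UVB replicate 3 has to be set apart. In it, Plin4 stood 7.68 times, Cd36 7.54 times and Fabp4 6.51 times above the mean of UVB replicates 1 and 2, Lpl 2.62 times and Cebpa 1.81 times. The median over genes was 1.04. A ratio of more than 3 was found in 3.38% of the tested genes and in 3 of the 5 members tested. This rule was chosen after the values were seen, and no test goes with it. UVB replicate 3 stood apart in these same genes, so setting it aside rests on their own values. P-values given below without it are descriptive.

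Markers of other cell types also differed in UVB replicate 3, in either direction. The macrophage markers were 1.53 to 3.21 times higher in it, the fibroblast markers 1.14 to 2.94 times and the endothelial markers 1.11 to 2.72 times, apart from Gpihbp1 at 6.11 times. Gpihbp1 encodes the capillary anchor of LPL. The leptin receptor Lepr was 5.33 times higher, the retinol carrier Rbp4 5.91 times, Pparg 4.24 times and the fat precursor factor Ebf2 6.24 times. The red blood cell markers were 3.52 to 8.68 times higher, and the myelin gene Mbp was 5.08 times higher. The haemoglobin gene Hba-a1 had the ratio of 8.68, above every tested member. That ratio rests on few fragments, at 0.221 and 0.137 CPM in UVB replicates 1 and 2 and 1.55 in replicate 3. The keratinocyte markers were at 0.0927 to 1.07 times and the melanocyte markers at 0.562 to 2.74 times their mean in the other UVB libraries. Lepr, Rbp4, Pparg, Ebf2, Hba-a1 and Mbp were named after their values were seen. How far any of these cell types accounts for the members' values was not tested.

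**Figure D2:**
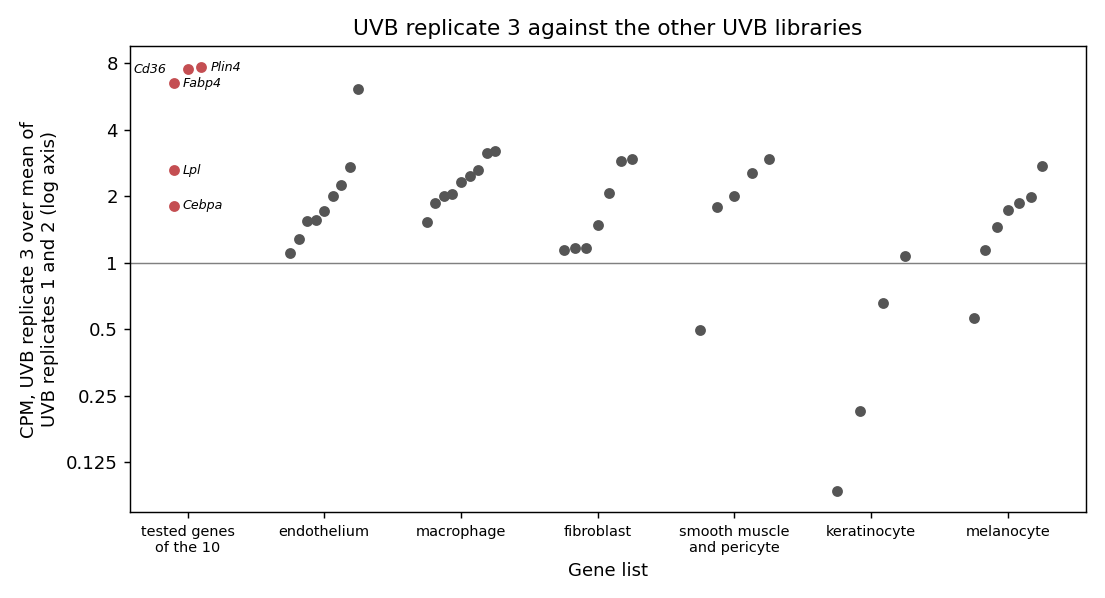
CPM in UVB replicate 3 divided by the mean of UVB replicates 1 and 2 (log axis) for the 5 tested genes of the set (red) and for the tested genes of 6 marker lists (grey); each point is a gene and the line marks 1. Plin4, Cd36 and Fabp4 lie between 6.51 and 7.68, above every macrophage, fibroblast and melanocyte marker, and Gpihbp1 is the endothelial gene at 6.11.

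Against Quiescent, 2 of the 5 abundant genes were lower in UVB and none higher, where 23.2% of all tested genes were called lower and 25.8% higher. Lpl was at 89.6, 61.8 and 198 CPM in UVB, below every Quiescent library, and fell 4.36-fold (log2 -2.13 ± 0.46, adjusted p = 0.0051). Plin4 was at 2.52, 0.924 and 13.2 CPM, also below every Quiescent library, and fell 4.63-fold (log2 -2.21 ± 0.78, adjusted p = 0.042). Without UVB replicate 3 the Plin4 fold was 14.8 (adjusted p = 0.00032) and the Lpl fold 6.7 (adjusted p = 0.00087). The Plin4 call was lost when UVB replicate 1 (adjusted p = 0.12) or any other library but UVB replicate 3 was left out.

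Cd36 was at 20.1 and 21.2 CPM in UVB replicates 1 and 2 and at 156 in replicate 3, so that its UVB values lay on either side of all Quiescent values. Over the 3 libraries it did not pass (log2 -0.59 ± 0.69, adjusted p = 0.5). Without UVB replicate 3 it was 4.78-fold lower in UVB (log2 -2.26 ± 0.13, adjusted p = 1.5e-05). Fabp4 was at 18.0, 17.5 and 115 CPM, with replicate 3 inside its Quiescent range of 89.4 to 120. It too did not pass with all libraries (log2 -1.11 ± 0.65, adjusted p = 0.19). Without replicate 3 it was 6.11-fold lower (log2 -2.61 ± 0.18, adjusted p = 2.5e-05). The small errors of Cd36 and Fabp4 there follow from removing the library in which each was high. Their p-values without it are descriptive only. Cebpa, at 35.2, 18.5 and 48.7 CPM, overlapped with Quiescent and did not pass either way (log2 -0.11 ± 0.43, adjusted p = 0.86, and -0.45 ± 0.46, adjusted p = 0.45). With library size as the only scaling, the values for Cd36 and Cebpa were 0.13 and 0.59, neither past the threshold.

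Against Active, 3 of the 5 were higher in UVB and none lower, where 14.8% of all tested genes were called higher and 9.19% lower. Lpl was 7.78-fold higher (log2 2.96 ± 0.48, adjusted p = 0.0045), with every UVB library above every Active library, and 5.05-fold higher without UVB replicate 3 (adjusted p = 0.0063). Cd36 was 5.43-fold higher (log2 2.44 ± 0.73, adjusted p = 0.041), and its UVB replicates 1 and 2 also lay above all Active libraries. Without replicate 3 its difference shrank to 1.71-fold and kept its call (log2 0.77 ± 0.12, adjusted p = 0.007). The call was lost when any Quiescent library (adjusted p = 0.051 to 0.057) or any Active library (0.1 to 0.13) was left out, with only the 2 groups (0.065) and in the limma fits (0.092 and 0.11).

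Plin4 was 6.35-fold higher (log2 2.67 ± 0.84, adjusted p = 0.049), but UVB replicate 2, at 0.924 CPM, lay within the range of Active, and without replicate 3 the difference was 1.98-fold (adjusted p = 0.15). This call was also lost when any Quiescent or Active library or UVB replicate 1 was left out (adjusted p = 0.057 to 0.13), with library size alone (0.052), with only the 2 groups (0.075) and in the limma fits (0.14 and 0.23). Fabp4 (log2 1.87 ± 0.67, adjusted p = 0.073) and Cebpa (log2 1.16 ± 0.44, adjusted p = 0.086) did not pass. Without UVB replicate 3, Fabp4 was 1.29-fold higher (adjusted p = 0.15), although all UVB libraries were above all Active libraries, the closest pair being 17.5 and 14.9 CPM.

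**Figure D3:**
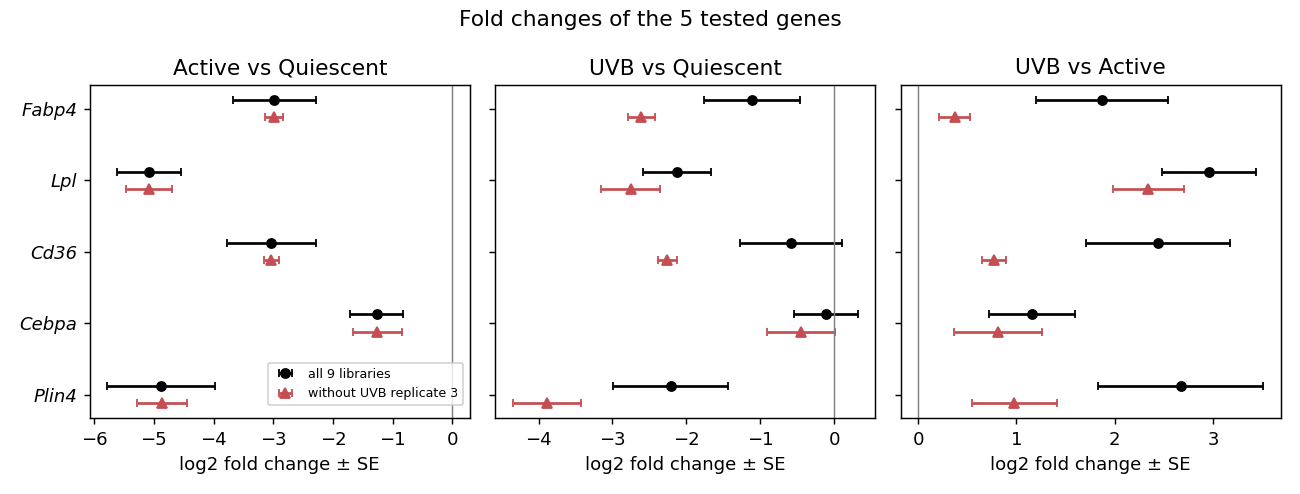
Log2 fold changes with their standard errors (edgeR) for the 5 tested genes in the 3 comparisons, with all 9 libraries (black circles) and without UVB replicate 3 (red triangles). Active against Quiescent hardly moves, whereas Cd36 in UVB against Quiescent goes from -0.59 to -2.26 and Fabp4 from -1.11 to -2.61.

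Across the 9 libraries the 5 genes were correlated in pairs, but they did not all move together within Quiescent. Pearson's r between their log2 CPM was 0.98 for Plin4 with Fabp4 and for Fabp4 with Cd36, 0.90 to 0.94 for the other pairs without Cebpa, and 0.70 to 0.76 for Cebpa with the others. These are descriptions over 9 points that fall into 3 groups and share 1 library, UVB replicate 3, that stands apart. Within Quiescent, replicate 3 had the highest Lpl (770 CPM) but the lowest Plin4 (18.5), Fabp4 (89.4) and Cebpa (20.2). Among genes outside the set, the mean profile of the 5 was most like that of Vax2os (r = 0.993), Fgf10 (0.993), 4833403I15Rik (0.992), Il11ra1 (0.991), Car4 (0.99), Ntrk2 (0.988), Mterfd2 (0.986) and Arid3a (0.985). Fgf10, a growth factor made by mesenchymal cells, was at 16.3, 13.2 and 7.85 CPM in Quiescent, 0.53, 0.798 and 0.368 in Active, and 2.87, 1.61 and 11.8 in UVB. Il11ra1, the receptor chain for interleukin 11, was at 149 to 180 CPM in Quiescent, 18.4 to 25.5 in Active, and 47.7, 35.7 and 124 in UVB. For Fabp4 alone, the most abundant of the 5 per kilobase, the genes most alike were 2610028E06Rik (0.984), Car4 (0.982), Btnl9 (0.982), Trp53inp1 (0.981) and Gpihbp1 (0.978). Gpihbp1 was at 9.73, 6.91 and 7.08 CPM in Quiescent and at 0.363 to 0.81 in Active.

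The wider pathways of the fat cell held genes that rose in Active as well as genes that fell. In the counts below, the lists include members of the set where they belong. With library size as the only scaling, all genes shifted up by 0.756 (median log2) in Active against Quiescent. Each change is therefore relative to the typical gene, and the counts of the lists depend on that choice. Falls not far from that size, such as Ptrf (log2 -0.77), Nr3c1 (-0.93) and Insr (-1.06), depend on it more than the larger falls do. Of all tested genes 29.1% were called higher and 29.2% lower in Active. The counts for lipolysis genes were near those shares in either direction. So were the falls among droplet coat genes and among brown and beige fat genes. The rises among triglyceride synthesis genes and among fatty acid uptake and binding genes were near them too.

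Among fatty acid uptake and binding genes, 4 of 15 tested rose and 6 fell in Active (median log2 -0.07), or 8 and 5 with library size alone. Fabp5, the fatty acid carrier of skin epithelium, rose 7.54-fold (adjusted p = 0.00065), from 63.5, 25.4 and 17.3 CPM in Quiescent to 327, 275 and 201 in Active, and Acsl4, which activates long-chain fatty acids, rose 1.92-fold (adjusted p = 0.00038). Per kilobase, Fabp4 was above Fabp5 in Quiescent, at 237 ± 36.2 against 45.4 ± 31.8 FPKM (mean ± SD, n = 3). In Active the order was turned, at 29.9 ± 3.7 for Fabp4 against 342 ± 82.9 for Fabp5, and in UVB the values were 107 ± 119 and 157 ± 34.0. The transporter Slc27a1 fell 3.97-fold in Active (adjusted p = 0.00029).

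Among droplet coat genes, 3 of 9 tested fell in Active and none rose (median log2 -0.17). Plin4 was the largest of these falls. Ptrf, the caveolar coat gene now called Cavin1, fell 1.71-fold (adjusted p = 0.0012), and Plin3 (log2 -0.30, adjusted p = 0.078) and Bscl2 (log2 -0.17, adjusted p = 0.25) did not pass. With library size alone the count was 4 higher and 1 lower. Plin2, the coat protein of most cells and named after its values were seen, was at 82.2 to 98.4 CPM in Quiescent and 83.5 to 95.1 in Active (log2 0.00 ± 0.21, adjusted p = 0.99).

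Of the lipolysis genes, 3 of 8 were higher and 2 lower in Active, or 5 and 0 with library size alone. Mgll, which cleaves monoglycerides, rose 10.3-fold (adjusted p = 5.2e-05), from 62.8, 31.0 and 68.9 CPM to 684, 482 and 511. G0s2, an inhibitor of the lipase ATGL, rose 7.05-fold (adjusted p = 2e-05) and Pnpla3 16.8-fold (adjusted p = 0.00018). In triglyceride synthesis 3 of 10 rose and 1 fell (7 and 1 with library size alone). Gpd1, which makes glycerol 3-phosphate, rose 4.48-fold (adjusted p = 0.00012), while the glycerol channel Aqp7 fell 4.76-fold (adjusted p = 0.001). In glucose uptake and lipogenesis 6 of 9 rose and 2 fell (7 and 2 with library size alone). Fasn, the fatty acid synthase, rose 2.11-fold (adjusted p = 0.0058), while Thrsp, a regulator of lipogenesis, fell 5.73-fold (adjusted p = 0.0013) and the insulin-regulated glucose transporter Slc2a4 4.8-fold (adjusted p = 0.0014).

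**Figure D4:**
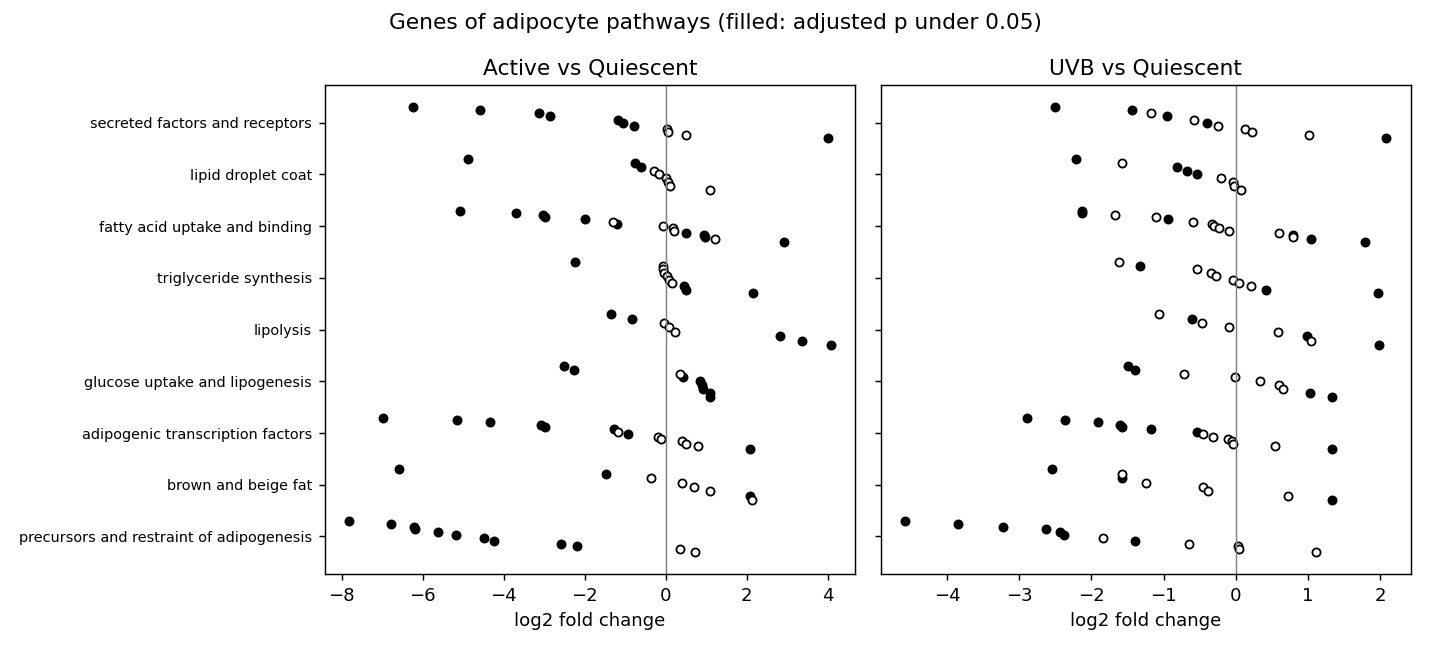
Log2 fold changes of the tested genes in 9 lists of fat cell pathways, for Active and for UVB against Quiescent, which share the Quiescent libraries; filled points have an adjusted p under 0.05 (edgeR) and the vertical position within a list only separates points. Most precursor genes lie left of 0 in either panel, while the lipogenesis and lipolysis lists have filled points on both sides.

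The precursor list moved most. Of 12 tested genes of fat precursors and of restraint of adipogenesis, 10 were lower in Active and none higher, with a median log2 fold change of -4.83 (0.007 over all genes tested), and the count was the same with library size alone. Cd34, a surface marker of stromal precursors, fell 226-fold (adjusted p = 6.3e-06), from 2930, 2710 and 4730 CPM to at most 18.2. Ly6a fell 73.8-fold (adjusted p = 1.2e-05), Dpp4 109-fold (adjusted p = 2.9e-05) and Pi16 36-fold (adjusted p = 2.5e-05). These are also genes of dermal fibroblasts, whose marker sums are given above. In UVB, 7 of the 12 were lower than in Quiescent and 8 were higher than in Active. Cd34 was at 101, 99.3 and 231 CPM there.

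Among adipogenic transcription factors, 7 of 14 were lower in Active and 1 higher, or 5 and 4 with library size alone. Ebf1 fell 126-fold (adjusted p = 2e-05), Zfp423, a determinant of the fat lineage, 35.4-fold (adjusted p = 1.8e-05), Nr1h3 7.84-fold (adjusted p = 0.00027) and Nr3c1 1.91-fold (adjusted p = 0.00018). Pparg, the master factor, named after its values were seen, was at 6.57, 6.02 and 7.2 CPM in Quiescent and 13.7, 8.52 and 5.68 in Active (log2 0.50 ± 0.57, adjusted p = 0.48). Of Cebpa and Pparg, partners in the fat cell, only Cebpa passed, and the value of Pparg lay within its error of 0. Whether they differed from each other was not tested. Among brown and beige fat genes 1 of 8 rose and 2 fell (4 and 2 with library size alone). Ppargc1a rose 4.21-fold (adjusted p = 0.001), Zic1 fell 96.3-fold (adjusted p = 6.3e-06), and Ucp1, the uncoupling protein, was at 0 in Quiescent.

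Of 17 secreted factors and receptors, 11 were tested, and 7 were lower and 1 higher in Active, or 5 and 4 with library size alone. Cdh13, one of the receptors of adiponectin, fell 8.76-fold (adjusted p = 2e-05). The adiponectin receptors Adipor1 (log2 0.03, edgeR adjusted p = 0.8) and Adipor2 (log2 0.05, adjusted p = 0.64), named after their values were seen, did not pass. The insulin receptor Insr fell 2.09-fold (adjusted p = 0.00018) and the adrenergic receptor Adrb1 24.1-fold (adjusted p = 0.00018), while the Wnt antagonist Sfrp5 rose 16.1-fold (adjusted p = 0.00076). Itln1, omentin, had no fragment in any library. The receptor of leptin was thus present where the hormone was not: Lepr was at 36.0, 38.4 and 21.1 CPM in Quiescent, 5.98, 3.7 and 3.47 in Active, and 32.4, 20.1 and 140 in UVB, against 1 fragment of Lep in all.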

How the data were processed

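RNA of 9 libraries (3 per group, groups from the labels) was read as deposited. Per the submitters' processing notes, cutadapt 1.8, TopHat2 2.0.13, Cuffdiff 2.2.1 and mm10 were used, and no source used here names the annotation or strand setting. The deposited estimated counts, fragments of each gene in each library per the file headers, came from the authors unscaled, and 1.08% were not whole (tolerance 1e-06), none of them in the 10 genes. The authors' FPKM served only to compare genes and in alternatives.

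After rounding, edgeR 4.0.16 (R 4.3.3) was used with TMM factors, filterByExpr and its quasi-likelihood F test (1 fit of all 9 libraries, two-sided). The filter kept 15078 genes and removed 8283. Adjusted p-values are Benjamini-Hochberg over all genes tested, threshold 0.05, and an SE is the log2 fold change over the square root of F. Libraries of a group differed by more than sampling noise (chi-square per degree of freedom 24.5 to 113.6). Simulated data had 200 changed genes per comparison. Of 4-fold changes, 78.8%, 69.2% and 71.2% were recovered in Active against Quiescent (14947 genes), UVB against Quiescent (14922) and UVB against Active (14873). The shares were 34.3%, 37.9% and 31.8% for 2-fold changes and at most 3% for 1.5-fold changes. Far more genes were called in the data, where the cut on the unadjusted p is therefore looser. These shares do not carry over to the data.

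The 10 genes and the lists were chosen with earlier results of these data known. All 10 are named, with up to 4 genes per list of smallest adjusted p, 8 genes most like the mean profile and 5 most like Fabp4; the text names a part of the list genes. Places come from GENCODE M21 (GRCm38). Alternatives were other scalings, DESeq2 1.42.0, limma 3.58.1 on log2(FPKM + 1) and log2(FPKM + 0.1), other filters, a replicate block, 2-group fits and leaving out each library. List counts under other scalings and without UVB replicate 3 were added after seeing the data.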

Additional observations from a re-analysis of the deposited data

How the results depend on the processing

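Of the single-gene values under the alternatives, 218 kept their side of the threshold, 38 lost it and 8 gained it, and no called value changed sign. The 5 genes lower in Active than in Quiescent were 4 or 5 when libraries were left out in turn and 3 with DESeq2, which gave no adjusted p for Plin4 and Fabp4. The 2 lower in UVB than in Quiescent were 3 in either limma fit (Fabp4 added), 1 with library size alone or only the 2 groups, 1 with DESeq2, where Plin4 (log2 -2.26) had no adjusted p, and 1 to 4 when a library was left out, 4 without UVB replicate 3. The 3 higher in UVB than in Active were 1 with either limma fit or only the 2 groups, and 1 to 5 when a library was left out, 5 without UVB replicate 2. Over all genes, library size alone called 8651 higher and 2208 lower in Active against Quiescent (4390 and 4396 with TMM), and 8746 higher and 1247 lower in UVB against Quiescent (3895 and 3498), so 79.7% and 87.5% of calls were higher, against 50% and 52.7%. In UVB against Active, leaving out a library gave 999 to 2548 genes higher and 453 to 1678 lower (2226 and 1386), the lowest without Active replicate 2. With the replicate number as a block, 1 of the 5 was higher in UVB than in Active; same-numbered libraries deviated together by r of -0.18 to 0.2, so the numbers were not taken to pair them. Without UVB replicate 3, lists for Active against Quiescent changed by at most 1 call in either direction. Depth limits the 5 barely detected genes, whose highest count was 28.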
